A study of Homo sapiens with 9 samples.

Results

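The 28 genes described here are enzymes of cholesterol synthesis, the SREBP transcription factors with the proteins that hold them in the endoplasmic reticulum, and a few carriers of sterols. They were chosen by gene name from the 58735 genes of the count table, with earlier results of these data known. Their shares set beside those of all genes are therefore descriptions only. The list holds 20 synthesis enzymes, 5 SREBP regulators and 3 sterol transport genes. All 28 were among the 15555 genes with enough counts to be tested. RNA was measured by RNA-seq in VCaP, an established line of prostate cancer cells that responds to androgens, with a wild-type genotype according to the labels. Cells grew in DMEM with fetal bovine serum and 2 nM dihydrotestosterone (DHT, an androgen) in all groups, and received by transfection either a control siRNA, siCtrl, or an siRNA against CDO1, siCDO1A or siCDO1C. CDO1 encodes cysteine dioxygenase, which oxidises cysteine on the way to taurine. Each group had 3 libraries that the labels call biological replicates, 9 in all, and the labels give no time after transfection. A transfected culture holds cells that took up different amounts of siRNA, and in such bulk RNA fewer cells with a transcript and less transcript per cell cannot be told apart.

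Cells make cholesterol from acetyl-CoA through mevalonate, squalene and lanosterol. The genes of this route are switched on by SREBP transcription factors, above all SREBP2, the product of SREBF2. When sterols are plentiful, the INSIG proteins hold the escort protein SCAP and its SREBP cargo in the endoplasmic reticulum, and when sterols are scarce SCAP carries SREBP to the Golgi, where it is cut and freed to enter the nucleus. Prostate cancer cells both take up and make cholesterol, and androgens are known to raise SREBP activity in them.

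CDO1 itself checked the labels. It was at 14.2, 14.1 and 13.7 CPM (counts scaled to library size, with TMM factors) in siCtrl cells, at 3.28, 2.05 and 2.18 CPM in siCDO1A cells and at 1.10, 2.81 and 1.16 CPM in siCDO1C cells. The mean was 82.1% lower with siCDO1A and 87.9% lower with siCDO1C. Total counts per library ran from 12061295 to 16073698, so that 3 counts, taken as the limit of detection, were 0.187 to 0.249 CPM. The 9 prostate line markers examined (among them KLK3, TMPRSS2 and ERG) were above 10 CPM in every library, and 6 of 8 markers of other cell types (blood, stroma, endothelium, basal epithelium) stayed under 1 CPM. Replicate 2 of siCDO1C stood apart from its group: its counts differed from those of the other siCDO1C libraries with a chi-square per degree of freedom of 13.2 and 13.1, against 2.48 to 6.18 for every other pair of replicates. The biological coefficient of variation was 5.26% in siCtrl, 7.06% in siCDO1A and 10.8% in siCDO1C cells. Some of the results that rest on that library are given with and without it.

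In siCtrl cells the members covered a wide range of levels. Per kilobase of gene length, the highest mean level in siCtrl cells was that of TM7SF2, a sterol C14 reductase, at 201 ± 3.48 CPM per kb (SD, n = 3). INSIG1, SQLE, PMVK and HMGCS1 followed at 121, 117, 111 and 109.5 CPM per kb, and each of them overlapped its next neighbour in that order except HMGCS1. The lowest were MVD at 3.48 ± 0.465 CPM per kb and the cholesterol exporter ABCA1 at 0.540 ± 0.107 CPM per kb. Of the 27 pairs of neighbours in the order, 10 had overlapping replicates.

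The SREBP regulators held the largest changes among the called members. INSIG1 was lower and SREBF1 higher with each siRNA, INSIG2 was lower with siCDO1A, and neither SREBF2 nor SCAP passed the test in any comparison. Changes are log2 fold changes with their standard error from the quasi-likelihood test of edgeR on 3 libraries against 3, with p-values adjusted by Benjamini-Hochberg over all genes tested and a threshold of 0.05. Both siRNA groups were compared with the same 3 siCtrl libraries, so the changes of a gene with the 2 siRNAs are not independent of each other.

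INSIG1 (chr7:155297776-155310235, plus strand, GRCh38) encodes the retention protein that is itself a well-known SREBP target. Its level was 453, 443 and 433 CPM in siCtrl cells, 320.4, 309.6 and 286 CPM in siCDO1A cells and 312, 379 and 345 CPM in siCDO1C cells. All 6 siRNA libraries lay below the lowest siCtrl library. The change was -0.54 ± 0.0532 with siCDO1A (adjusted p = 6.32e-07), a fall to 0.689 times the control level, and -0.37 ± 0.0772 with siCDO1C (adjusted p = 0.0123). The call with siCDO1A held under all 13 alternative settings, and that with siCDO1C was lost under 5 of 13, with an adjusted p of up to 0.106.

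INSIG2 (chr2:118088452-118110997, plus strand), the second retention protein, which is less dependent on SREBP, was at 63.2, 68.6 and 60.9 CPM in siCtrl cells, 39.2, 46.8 and 40.5 CPM in siCDO1A cells and 54.6, 59.3 and 49.3 CPM in siCDO1C cells. The siCDO1A libraries were all below the siCDO1C libraries, which in turn were all below siCtrl. With siCDO1A it fell by 0.60 on the log2 scale (SE 0.0807, adjusted p = 2.86e-05), to 0.658 times the control level, and this call held under all 13 settings. The difference of siCDO1C from siCtrl, -0.25 ± 0.0885, did not pass the test (adjusted p = 0.138), and it reached -0.31 with an adjusted p of 0.00662 when replicate 2 of siCDO1C was left out.

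SREBF1 (chr17:17810399-17837002, minus strand) encodes SREBP1, whose isoforms drive mainly fatty acid synthesis. It was at 206, 206 and 226 CPM in siCtrl cells, 309.6, 309.5 and 277 CPM in siCDO1A cells and 267, 271 and 255 CPM in siCDO1C cells. Every siRNA library was above the highest siCtrl library. SREBF1 rose by 0.49 ± 0.0586 with siCDO1A (adjusted p = 8.30e-06), and for siCDO1C the value was 0.30 ± 0.0705 (adjusted p = 0.0228). The first call held under all 13 settings and the second was lost under 5 of 13. The gene shares 1055 bases with RAI1 on the opposite strand, and whether the counting used strand is not given in the sources used here.

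SREBF2 (chr22:41833079-41907308, plus strand), the main activator of the synthesis enzymes, was measured at 521, 506 and 544 CPM in siCtrl cells, 546, 547 and 532 CPM in siCDO1A cells and 506, 454 and 493 CPM in siCDO1C cells. The siCDO1A libraries fell within or just above the siCtrl range, and the siCDO1C libraries reached below it. The log2 fold change was 0.05 ± 0.0490 with siCDO1A (adjusted p = 0.568), and for siCDO1C the value was -0.12 ± 0.0715 (adjusted p = 0.412). SCAP, the sterol-sensing escort of SREBP, was at 190.0, 199.7 and 211 CPM in siCtrl cells, 212, 209 and 195 CPM in siCDO1A cells and 180.1, 189.7 and 181 CPM in siCDO1C cells. Its change was 0.04 ± 0.0574 with siCDO1A (adjusted p = 0.735), and for siCDO1C the value was -0.13 ± 0.0705 (adjusted p = 0.337), with overlapping libraries in the first comparison and all siCDO1C libraries at or below the lowest siCtrl library.

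**Figure D1:**
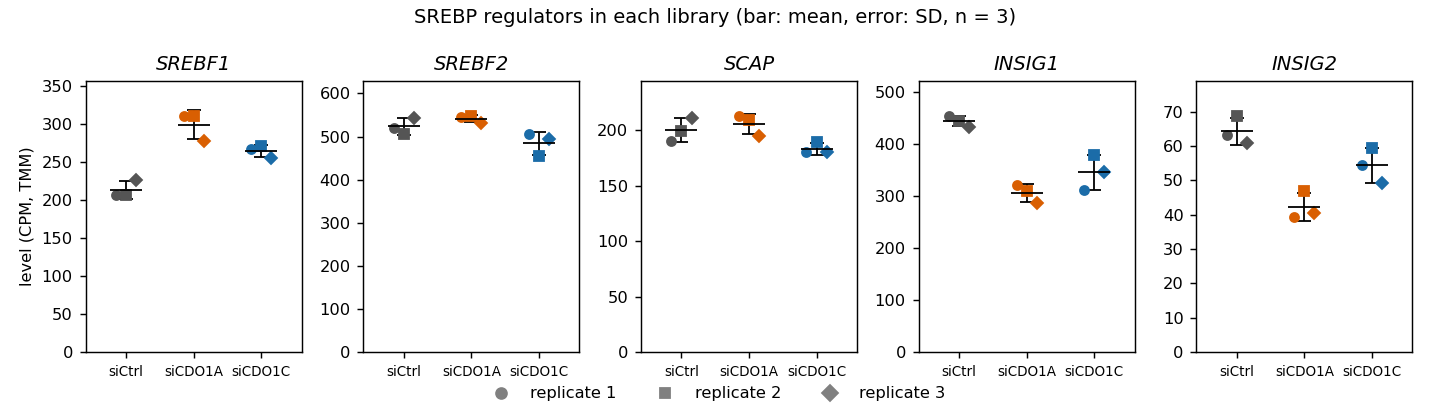
Levels (CPM with TMM scaling, linear axes from 0) of the 5 SREBP regulators in the 9 libraries, by siRNA, with a marker for each replicate number, a bar for the mean and the SD of 3 libraries as error. SREBF1 lies above and INSIG1 below the siCtrl libraries in all 6 siRNA libraries, and INSIG2 is lowest with siCDO1A, and SREBF2 and SCAP did not pass the test.

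The promoters of the 3 regulators that changed, and of SREBF2, are shown because these genes moved in opposite directions, or did not pass the test, while belonging to a single control circuit. Each run is the RefSeq window on GRCh38.p14 from 250 bases before to 50 bases after the annotated start, 5′ to 3′ on the gene's strand. INSIG1 is at chr7:155297628-155297927 on the plus strand, INSIG2 at chr2:118088221-118088520 on the plus strand (1 of 2 windows listed), SREBF1 at chr17:17836937-17837236 on the minus strand and SREBF2 at chr22:41832855-41833154 on the plus strand. Capitals mark matches on either strand to an SRE core (TCACNCCAC, the sterol response element bound by SREBP), an E-box (CACGTG) or a CCAAT box (CCAAT, the site of NF-Y, a usual partner of SREBP).
INSIG1: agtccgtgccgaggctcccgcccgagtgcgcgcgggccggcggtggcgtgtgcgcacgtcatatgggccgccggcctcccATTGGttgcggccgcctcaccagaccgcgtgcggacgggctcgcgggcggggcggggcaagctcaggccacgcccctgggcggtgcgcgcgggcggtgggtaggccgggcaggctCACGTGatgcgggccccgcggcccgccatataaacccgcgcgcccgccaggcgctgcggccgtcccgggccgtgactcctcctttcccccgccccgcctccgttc
INSIG2: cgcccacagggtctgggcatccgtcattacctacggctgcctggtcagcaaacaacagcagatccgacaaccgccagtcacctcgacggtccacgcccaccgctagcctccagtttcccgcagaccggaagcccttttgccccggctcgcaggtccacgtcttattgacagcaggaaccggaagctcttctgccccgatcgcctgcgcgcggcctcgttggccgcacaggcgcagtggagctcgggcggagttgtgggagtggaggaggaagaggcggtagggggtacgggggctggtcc
SREBF1: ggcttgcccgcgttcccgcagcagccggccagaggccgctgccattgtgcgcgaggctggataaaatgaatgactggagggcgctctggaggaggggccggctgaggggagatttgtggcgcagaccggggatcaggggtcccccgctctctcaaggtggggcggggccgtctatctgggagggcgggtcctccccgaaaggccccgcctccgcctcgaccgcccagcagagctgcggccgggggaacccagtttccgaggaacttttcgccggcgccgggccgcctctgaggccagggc
SREBF2: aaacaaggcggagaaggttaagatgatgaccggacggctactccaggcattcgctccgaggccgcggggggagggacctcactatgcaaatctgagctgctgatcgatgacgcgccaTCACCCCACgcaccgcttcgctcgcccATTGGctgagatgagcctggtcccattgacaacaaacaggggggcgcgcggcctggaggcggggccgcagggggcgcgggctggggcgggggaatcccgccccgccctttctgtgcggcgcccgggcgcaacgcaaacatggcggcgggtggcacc
In the INSIG1 window an E-box begins at -55 and a CCAAT box at -170 from the start, and in the SREBF2 window the SRE core begins at -133 and a CCAAT box at -106. The windows shown for INSIG2 and SREBF1 hold none of these 3 letter patterns, which says only that they are not within these 300 bases.

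Over the list, 25 of 28 members were matched by symbol to the promoter windows used here and gave 33 windows (ACAT2, SQLE and FDFT1 were not matched). A CCAAT box was in 19 of the 33 windows (57.6%), against 34.6% of all 35116 windows. A GC box (GGGCGG, the site of SP1) was in 29 (87.9%), against 45.0% of all windows, and an E-box in 6 (18.2%), against 7.26%. The SRE core was in 1 member window (3.03%), that of SREBF2, against 1.13% of all windows. These are descriptions of letters in a window and not of bound sites. The comparison took all windows, not only those of genes tested here, whereas every member was tested. Some members gave more than 1 window, so the member windows are not independent.

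With siCDO1A, 7 of the 20 synthesis enzymes rose and none fell. Of all 28 members, 8 rose (28.6%) and 2 fell (7.14%), whereas 7.37% of all genes tested rose and 7.48% fell, and the 2 that fell were the INSIG genes. The 7 enzymes that rose were MVK, FDPS, SQLE, LSS, MSMO1, EBP and DHCR7. With the replicate number, which equals the batch number of the labels, as a block in the fit, MVK and EBP kept the call and the other 5 did not. GGPS1 (-0.22), LBR (-0.16) and SC5D (-0.16) had values below 0 with an unadjusted p under 0.05 and did not pass after adjustment. The median log2 fold change of the 20 enzymes was 0.13, with 15 above 0, beside a median of 0.010 over all genes tested. Leaving out 1 library at a time gave from 6 to 16 called members, the latter without replicate 3 of siCDO1A, in which the median enzyme was 0.0471 above the siCtrl mean on the log2 scale, against 0.153 and 0.154 in replicates 1 and 2. Of those 16 members, 12 were higher and 4 lower, beside 11.2% and 11% of all genes in that fit, and LBR and SC5D were then called lower (-0.21 each, adjusted p = 0.00223 and 0.00229). LBR and SC5D were also called lower without siCtrl replicate 3.

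Along the mevalonate arm, MVK, the kinase that phosphorylates mevalonate, changed most with siCDO1A. It was at 69.8, 72.9 and 71.5 CPM in siCtrl cells, 97.9, 91.7 and 82.9 CPM in siCDO1A cells and 86.5, 86.9 and 79.5 CPM in siCDO1C cells. All siRNA libraries exceeded siCtrl, and MVK rose by 0.35 ± 0.0693 with siCDO1A (adjusted p = 0.00184), a call kept under all 13 settings. With siCDO1C the difference was 0.23 ± 0.0754 (adjusted p = 0.0960). MVK overlaps MMAB, a gene of cobalamin metabolism on the opposite strand, by 620 bases.

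FDPS, which makes farnesyl diphosphate, the branch point to sterols, dolichol and prenyl groups, was at 73.5, 70.7 and 65.0 CPM in siCtrl cells, 86.9, 87.7 and 75.6 CPM in siCDO1A cells and 63.7, 75.4 and 69.7 CPM in siCDO1C cells. Only siCDO1A stood above siCtrl, and there FDPS rose by 0.26 ± 0.0731 (adjusted p = 0.0199), a call lost under 7 of 13 settings. Its value with siCDO1C was -0.01 ± 0.0855 (adjusted p = 0.968). The 8 FDPS pseudogenes listed reached at most 0.328 CPM in any library.

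The first enzymes of the arm did not pass the test against siCtrl but took opposite signs with the siRNAs. ACAT2, the cytosolic thiolase that joins acetyl-CoA units, had 0.18 with siCDO1A (adjusted p = 0.0846), and for siCDO1C the value was -0.19 (adjusted p = 0.248). HMGCS1, the cytosolic HMG-CoA synthase, had 0.15 (adjusted p = 0.0739) and -0.18 (adjusted p = 0.262). PMVK, which adds the second phosphate to mevalonate, was at -0.08 and -0.22, and MVD, which decarboxylates the product, at 0.08 and -0.17. IDI1, the isopentenyl diphosphate isomerase, was at 0.13 and 0.01. In siCDO1C replicates 1, 2 and 3 IDI1 was at -0.12, 0.26 and -0.12 on the log2 scale relative to the siCtrl mean. GGPS1, which leads away to geranylgeranyl diphosphate, was at -0.22 and -0.16. None of these 4 passed the test with either siRNA. GGPS1 overlaps TBCE (3.62 CPM in siCtrl cells) by 15963 bases on the same strand. It also overlaps ARID4B (59.2 CPM) by 870 bases on the opposite strand.

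Around squalene and lanosterol, all 3 enzymes lay above every siCtrl library in every siCDO1A library, though only SQLE and LSS passed the test. The share of all genes with such a separation from siCtrl was not counted. SQLE, squalene epoxidase, a rate-limiting step, was at 515, 503 and 499 CPM in siCtrl cells, 566, 560.1 and 555 CPM in siCDO1A cells and 446, 512 and 475 CPM in siCDO1C cells. It rose by 0.15 ± 0.0473 with siCDO1A (adjusted p = 0.0380), a small shift whose call was lost under 9 of 13 settings, and was at -0.09 ± 0.0713 with siCDO1C (adjusted p = 0.562). LSS, the cyclase that forms lanosterol, was at 522, 539.7 and 541 CPM in siCtrl cells, 659, 649 and 548 CPM in siCDO1A cells and 576, 533 and 573 CPM in siCDO1C cells. It rose by 0.21 ± 0.0601 with siCDO1A (adjusted p = 0.0209, lost under 7 of 13 settings), while the siCDO1C libraries lay within or above the siCtrl range with a change of 0.06 ± 0.0685 (adjusted p = 0.691). FDFT1, squalene synthase, was at 0.10 with siCDO1A (adjusted p = 0.207), and for siCDO1C the value was -0.09 (adjusted p = 0.541).

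After lanosterol, EBP, DHCR7 and MSMO1 rose with siCDO1A. EBP, the sterol isomerase, was at 54.8, 56.5 and 58.7 CPM in siCtrl cells, 77.0, 71.4 and 65.0 CPM in siCDO1A cells and 53.8, 74.5 and 54.7 CPM in siCDO1C cells. It rose by 0.33 ± 0.0736 with siCDO1A (adjusted p = 0.00464, lost under 1 of 13 settings), and in siCDO1C cells only replicate 2 was near the siCDO1A level, with a change of 0.10 ± 0.110 for the group (adjusted p = 0.698).

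DHCR7, the last reductase before cholesterol, was at 274, 272 and 249 CPM in siCtrl cells, 309, 304 and 313 CPM in siCDO1A cells and 280.4, 268 and 301 CPM in siCDO1C cells. It rose by 0.22 ± 0.0534 with siCDO1A (adjusted p = 0.00755, lost under 2 of 13 settings) and was at 0.09 ± 0.0744 with siCDO1C (adjusted p = 0.577). MSMO1, the methyl sterol monooxygenase, was at 241, 247 and 228 CPM in siCtrl cells, 264, 267 and 276 CPM in siCDO1A cells and 227, 318 and 256 CPM in siCDO1C cells. It rose by 0.17 ± 0.0531 with siCDO1A (adjusted p = 0.0303, lost under 8 of 13 settings). With siCDO1C, MSMO1 was at 0.16 ± 0.10 (adjusted p = 0.448), with replicate 2 the highest of the 9 libraries, and at 0.014 without that replicate.

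With siCDO1C no enzyme passed the test as higher and 1 passed as lower. Of the 28 members, 1 rose (3.57%, SREBF1) and 2 fell (7.14%, INSIG1 and TM7SF2), beside 2.27% and 2.5% of all genes tested. The median enzyme was at -0.12, with 14 of 20 below 0, beside -0.00023 over all genes. TM7SF2 was at 671, 689 and 693 CPM in siCtrl cells, 729.6, 736 and 605 CPM in siCDO1A cells and 547, 622 and 544 CPM in siCDO1C cells. Every siCDO1C library was below every siCtrl library, and TM7SF2 fell by 0.27 on the log2 scale (SE 0.0723, adjusted p = 0.0464), a call lost under 8 of 13 settings. With siCDO1A the value was 0.01 ± 0.0614 (adjusted p = 0.919), replicate 3 being the lowest. TM7SF2 shares 16 bases with VPS51 on the same strand.

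CYP51A1, the lanosterol demethylase, was at -0.35 ± 0.113 with siCDO1C, without passing the test (adjusted p = 0.0945), and at -0.03 with siCDO1A. Its siCDO1C libraries were at 27.7, 22.1 and 30.6 CPM, against 32.3, 35.0 and 34.5 CPM in siCtrl cells. Replicate 2 was the lowest, and without it the value was -0.23 (adjusted p = 0.0937). CYP51A1 was called lower with no filter on low counts (adjusted p = 0.0352) and without siCDO1C replicate 3 (adjusted p = 0.0421). Pseudogenes reached at most 1.60 CPM in any library for CYP51A1 (3 listed) and 0.738 CPM for HSD17B7 (2 listed). LBR, the lamin B receptor that doubles as a C14 reductase, was at -0.16 with siCDO1A and -0.13 with siCDO1C, and SC5D, the desaturase acting before DHCR7, at -0.16 and -0.14. NSDHL and HSD17B7, which remove the C4 methyl groups with MSMO1, were at 0.13 and 0.12 with siCDO1A and at -0.11 and -0.17 with siCDO1C. None of these 4 passed the test.

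Replicate 2 of siCDO1C weighed on these counts. The median enzyme was -0.16, -0.0013 and -0.12 on the log2 scale relative to the siCtrl mean in siCDO1C replicates 1, 2 and 3. Without replicate 2, the comparison of siCDO1C with siCtrl called 11 members, beside 6.78% of all genes rising and 6.52% falling. SREBF1, MVK and ABCA1 were higher there and INSIG1, INSIG2, TM7SF2, PMVK, ACAT2, HMGCS1, SQLE and SC5D lower. CDO1 was at 2.81 CPM in that library and at 1.10 and 1.16 CPM in the other siCDO1C libraries, and its part in these differences was not tested. Leaving out any siCtrl library or replicate 1 of siCDO1C instead left 0 called members.

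**Figure D2:**
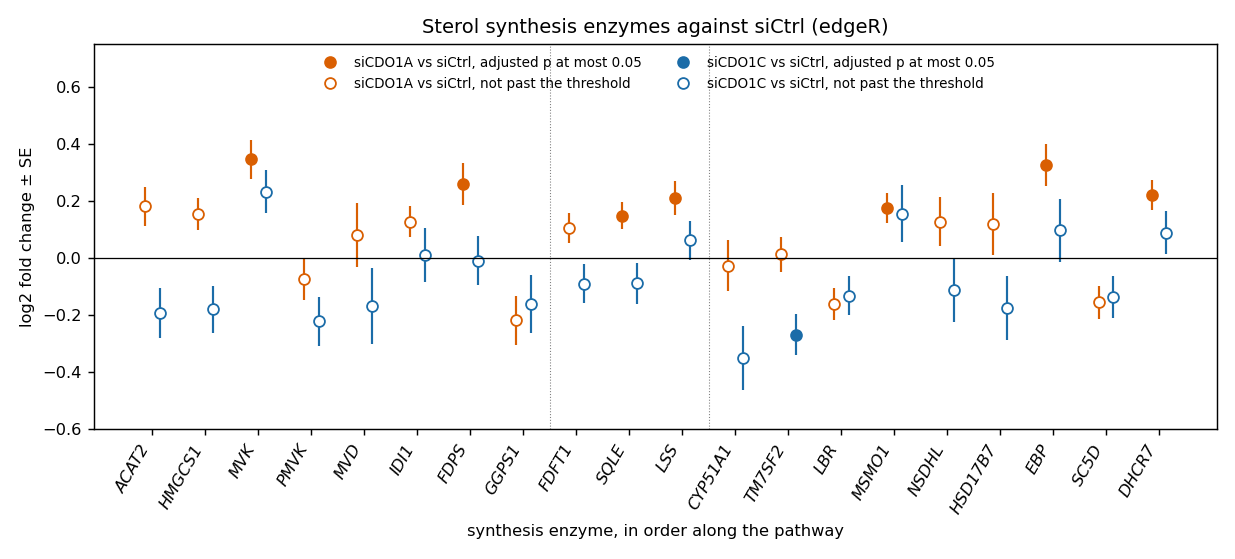
Log2 fold change and standard error (edgeR) of the 20 synthesis enzymes against siCtrl, in order along the pathway, for siCDO1A and siCDO1C, with filled points for an adjusted p of at most 0.05 and dotted lines between the mevalonate arm, the squalene and lanosterol steps and the later steps. The 7 filled siCDO1A points are all above 0 and the only filled siCDO1C point, TM7SF2, is below 0.

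The siRNAs were then compared directly, siCDO1C against siCDO1A. No member passed the test in the main edgeR fit, of the 6 libraries concerned, beside 0.244% of all genes higher and 0.199% lower. Other settings, given below, called some members. Without adjustment, a p under 0.05 was reached by 3 members higher in siCDO1C cells and by 12 lower ones, beside 3.83% and 3.82% of all genes tested. Of the 20 enzymes, 17 were below 0 and their median was -0.21, beside -0.0054 over all genes. In 11 of 28 members (39.3%) all siCDO1C libraries lay below all siCDO1A libraries, against 6.37% of all genes, and in 2 members (7.14%) all lay above, against 6.34%. Of those 11, 8 were enzymes (ACAT2, HMGCS1, MVD, FDPS, FDFT1, SQLE, HSD17B7 and DHCR7) and 3 were SREBF1, SREBF2 and SCAP. The 2 above were INSIG2 and STARD4.

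ACAT2 was the member closest to the threshold. It was at 82.1, 95.5 and 81.1 CPM in siCtrl cells, 101, 94.9 and 97.4 CPM in siCDO1A cells and 72.4, 82.4 and 72.5 CPM in siCDO1C cells. The siCDO1A and siCDO1C libraries did not overlap, and the siCtrl libraries overlapped both groups. The difference of siCDO1C from siCDO1A was -0.37 ± 0.0850 (adjusted p = 0.0794), with a 95% interval of -0.55 to -0.19. ACAT2 overlaps TCP1, an abundant chaperonin gene on the opposite strand, by 558 bases.

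HMGCS1 was at 513, 561 and 471 CPM in siCtrl cells, 575, 574 and 569.5 CPM in siCDO1A cells and 413, 488 and 469 CPM in siCDO1C cells. The siCDO1A libraries agreed closely, above all others, while the siCDO1C libraries were all below them. The difference was -0.33 ± 0.0818 (adjusted p = 0.110, 95% interval -0.50 to -0.16). DESeq2, a single edgeR fit of the 9 libraries, no filter on low counts and the replicate block each called ACAT2 and HMGCS1, and no other member, as lower with siCDO1C. The shares of all genes called under these settings were not counted, so these calls cannot be weighed against them.

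Further along the route, SQLE differed by -0.23 ± 0.0794 (adjusted p = 0.358), FDPS by -0.27 ± 0.0930 (adjusted p = 0.395) and TM7SF2 by -0.28 ± 0.0912 (adjusted p = 0.330). Without replicate 2 of siCDO1C, 7 members were called lower (ACAT2, HMGCS1, IDI1, FDPS, SQLE, TM7SF2 and EBP) and 1 higher (ABCA1), beside 1.29% of all genes lower and 1.59% higher. In that library IDI1, FDPS, EBP and MSMO1 were each higher than in the other siCDO1C libraries. For the enzymes with the smallest differences between the siRNAs, the 95% interval was -0.23 to 0.20 for MSMO1, -0.15 to 0.19 for SC5D and -0.13 to 0.20 for LBR. For INSIG1, lower with each siRNA, the difference was 0.17 ± 0.0871 with an interval of -0.01 to 0.36, so that a difference of that size between the siRNAs could not be told from 0. INSIG2 was 0.36 ± 0.102 higher in siCDO1C than in siCDO1A cells (adjusted p = 0.196) and the value for SREBF1 was -0.18 ± 0.0802 (adjusted p = 0.598).

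**Figure D3:**
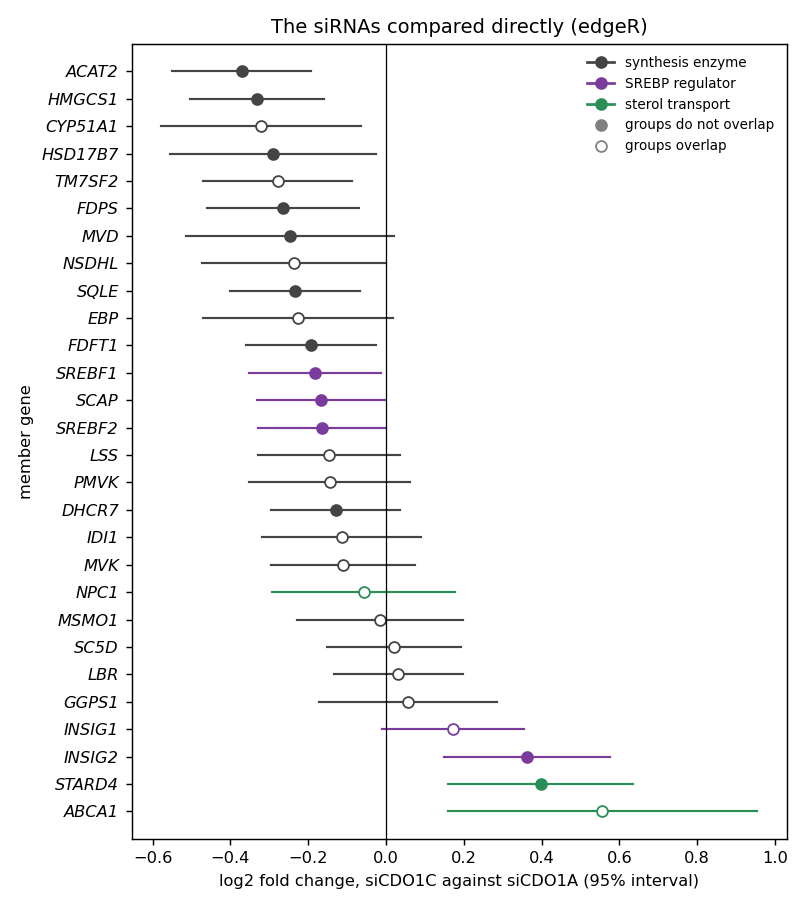
Log2 fold change of siCDO1C against siCDO1A with its 95% interval (edgeR, 3 libraries against 3) for the 28 members, coloured by role, with filled points where the libraries of the groups do not overlap. Of the 28 points 21 are below 0, ACAT2 lowest, and ABCA1, STARD4 and INSIG2 are the farthest above 0.

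None of the 3 sterol transport genes passed the test in any comparison in the main edgeR fit. STARD4, a cytosolic carrier that brings cholesterol to the endoplasmic reticulum and is a SREBP2 target, was at 25.1, 22.7 and 21.3 CPM in siCtrl cells, 19.9, 20.5 and 19.0 CPM in siCDO1A cells and 23.6, 29.7 and 25.2 CPM in siCDO1C cells. Every siCDO1A library was below every siCtrl and siCDO1C library. It was at -0.21 ± 0.0964 with siCDO1A (adjusted p = 0.147), and for siCDO1C the value was 0.18 ± 0.111 (adjusted p = 0.425), and siCDO1C differed from siCDO1A by 0.40 ± 0.113 (adjusted p = 0.206). Replicate 2 was the highest siCDO1C library, and without it the values were 0.0818 against siCtrl and 0.30 against siCDO1A.

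ABCA1, which exports cholesterol to lipid-poor apolipoprotein and is induced by LXR when sterols are plentiful, was low, at 6.31, 7.25 and 4.84 CPM in siCtrl cells, 5.41, 7.05 and 6.81 CPM in siCDO1A cells and 11.6, 6.85 and 10.1 CPM in siCDO1C cells. Replicates 1 and 3 of siCDO1C were above all other libraries and replicate 2 was within the siCtrl range. The change with siCDO1C was 0.64 ± 0.202 (adjusted p = 0.0885), and without replicate 2 it was 0.83 with an adjusted p of 7.31e-04. With all libraries, ABCA1 was called higher with no filter on low counts (adjusted p = 0.00912) and in the single fit of 9 libraries (adjusted p = 0.0487). With siCDO1A it was 0.09 ± 0.174 (adjusted p = 0.789). NPC1, which lets cholesterol out of lysosomes, was at 42.3, 38.9 and 40.6 CPM in siCtrl cells, 37.8, 37.1 and 39.4 CPM in siCDO1A cells and 39.8, 30.1 and 40.3 CPM in siCDO1C cells. Its groups overlapped apart from replicate 2 of siCDO1C, the lowest library, and the change was -0.09 ± 0.0776 with siCDO1A and -0.15 ± 0.109 with siCDO1C (adjusted p = 0.481 and 0.509), the latter -0.0235 without replicate 2. NPC1 overlaps RMC1 (11.5 CPM in siCtrl cells) on the opposite strand by 25624 bases.

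**Figure D4:**
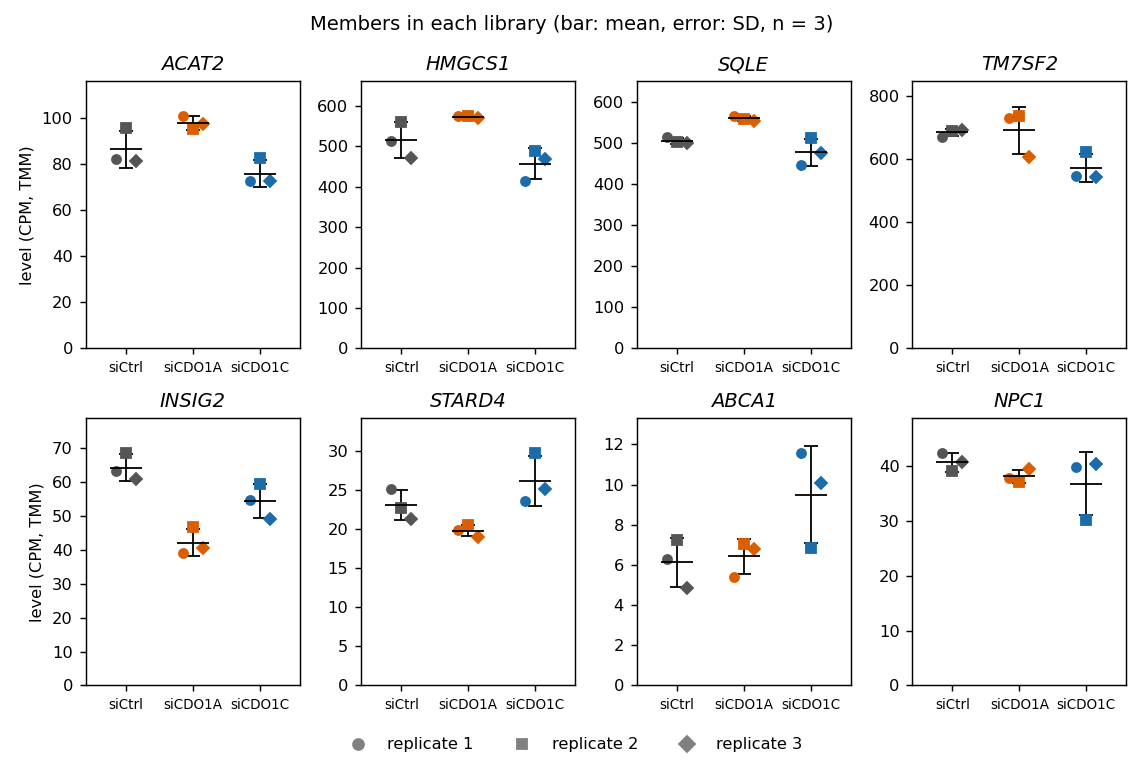
Levels (CPM with TMM scaling, linear axes from 0) of 4 enzymes, INSIG2 and the 3 sterol transport genes in the 9 libraries, with a marker for each replicate number, a bar for the mean and the SD of 3 libraries. For ACAT2, HMGCS1 and SQLE the siCDO1C libraries all lie below the siCDO1A libraries, for INSIG2 and STARD4 all lie above, and ABCA1 is high in siCDO1C replicates 1 and 3 but not in replicate 2.

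Genes next to the members in the pathway were taken from 3 further lists. Of 21 tested genes of SREBP processing and sterol-regulated turnover, 2 rose and 3 fell with siCDO1A, 2 rose and 0 fell with siCDO1C, and 1 differed between the siRNAs, with medians of -0.074, 0.013 and 0.043. The shares were 9.52% higher and 14.3% lower with siCDO1A, beside 7.37% and 7.48% of all genes, 9.52% higher with siCDO1C, beside 2.27%, and 4.76% higher between the siRNAs, beside 0.244%. MBTPS2, the site-2 protease that makes the second cut of SREBP, was that gene, at 75.3, 69.0 and 67.0 CPM in siCtrl cells, 48.9, 51.7 and 56.2 CPM in siCDO1A cells and 77.2, 71.1 and 71.2 CPM in siCDO1C cells. The siCDO1A libraries were all below the others, and MBTPS2 fell by 0.43 on the log2 scale with siCDO1A (SE 0.0745, adjusted p = 5.37e-04) and was at 0.05 ± 0.0804 with siCDO1C (adjusted p = 0.804). The siRNAs differed by 0.48 ± 0.0895 (adjusted p = 0.0180), a call lost under 4 of 13 settings.

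NFYB, a subunit of NF-Y, fell with siCDO1A (-0.25, adjusted p = 0.0142), as did CREB1, a factor that acts beside SREBP on some promoters (-0.26, adjusted p = 0.0352). UBE2G2, a ubiquitin-conjugating enzyme of sterol-induced degradation in the endoplasmic reticulum, rose with siCDO1A (0.23, adjusted p = 0.00371) and siCDO1C (0.29, adjusted p = 0.0228). The calls were lost under 5 of 13 settings for NFYB, 7 for CREB1 and 6 for UBE2G2 with siCDO1C, and under none for UBE2G2 with siCDO1A. PAQR3, a Golgi protein that anchors SCAP and SREBP there, was named after its values were seen: at 21.9, 22.9 and 22.9 CPM in siCtrl cells, 35.2, 31.9 and 35.4 CPM in siCDO1A cells and 31.6, 36.8 and 30.4 CPM in siCDO1C cells, every siRNA library was above siCtrl, and it rose by 0.60 ± 0.0864 with siCDO1A (adjusted p = 6.52e-05), and for siCDO1C the value was 0.54 ± 0.0993 (adjusted p = 0.00516), calls kept under all 13 settings.

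Of 20 genes of the isoprenoid and non-sterol branch, 3 rose and 0 fell with siCDO1A, 1 rose with siCDO1C and 0 differed between the siRNAs, with medians of 0.080, 0.022 and -0.034. The share that rose was 15% with siCDO1A, beside 7.37% of all genes, and 5% with siCDO1C, beside 2.27%. ICMT, which methylates prenylated proteins, was at 173, 179.6 and 168 CPM in siCtrl cells, 262, 250.3 and 274 CPM in siCDO1A cells and 261, 220.5 and 259 CPM in siCDO1C cells, with every siRNA library above siCtrl. It rose by 0.60 ± 0.0553 with siCDO1A (adjusted p = 2.54e-07), and for siCDO1C the value was 0.50 ± 0.0798 (adjusted p = 0.00203), kept under all 13 settings. PDSS1, which builds the side chain of coenzyme Q, and RCE1, the protease acting before ICMT, rose with siCDO1A (0.50 and 0.29, adjusted p = 0.0183 and 0.0298), calls lost under 4 and 7 of 13 settings.

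Of 34 tested genes of sterol transport, esterification and LXR, 2 rose and 5 fell with siCDO1A, 0 rose and 1 fell with siCDO1C and 0 differed between the siRNAs, with medians of -0.11, -0.060 and 0.028. With siCDO1A 5.88% rose and 14.7% fell, beside 7.37% and 7.48% of all genes, and with siCDO1C 2.94% fell, beside 2.5%. LIPA, the lysosomal acid lipase that frees cholesterol from esters, fell with siCDO1A (-0.41, adjusted p = 0.00123), as did the exporter ABCG1 (-0.31, adjusted p = 0.0109). SCARB1, a receptor for high-density lipoprotein, rose with siCDO1A (0.41, adjusted p = 2.07e-05), as did LRP8, a lipoprotein receptor (0.42, adjusted p = 0.00934). The calls of LIPA and SCARB1 were kept under all 13 settings, and those of ABCG1 and LRP8 were lost under 5 and 2. ABCG1 was at 45.7, 45.5 and 43.8 CPM in siCtrl cells and 50.5, 35.4 and 49.6 CPM in siCDO1C cells. Replicate 2 of siCDO1C was thus below every siCtrl library and replicates 1 and 3 above. None of these 4 passed with siCDO1C, where their values ran from -0.12 for LIPA to 0.20 for SCARB1. They were named by smallest p between the siRNAs, which favours genes that differ between the siRNAs. The gene of this list that fell with siCDO1C was OSBPL10 (-0.40, adjusted p = 0.0498), which also fell with siCDO1A (-0.29, adjusted p = 0.0131). The other settings were not examined for OSBPL10.

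**Figure D5:**
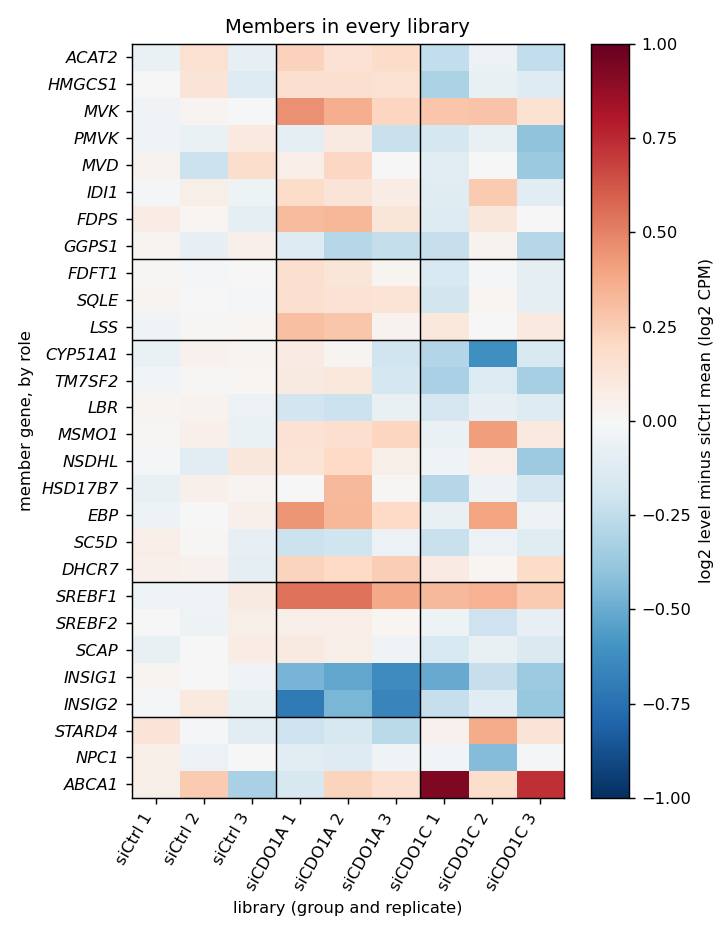
Log2 level of each member in each of the 9 libraries minus its siCtrl mean (colour, log2 CPM), with members in the order of their roles and lines between roles and groups. SREBF1 is high and INSIG1 and INSIG2 are low in all 6 siRNA libraries, the enzymes are mostly above the siCtrl mean with siCDO1A (16, 17 and 14 of 20) and 3, 10 and 5 of 20 are above it with siCDO1C.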

How the data were processed

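RNA of 9 VCaP libraries was measured by poly(A)-selected, strand-specific, paired-end RNA-seq. The authors deposited raw counts per gene, which were not normalized. They were made with featureCounts per the paper's methods, and the submitters' processing notes name CASAVA, HISAT2 2.0.5 and hg38; strand and multiple-mapping settings are not given in the sources used here. The deposited table also gives gene coordinates and lengths, and lengths were used only for levels per kilobase. It has 3 further columns of per-sample values that match no sample and were not used.

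Groups followed the siRNA, and each of 3 comparisons used the 6 libraries concerned. The filter filterByExpr set which genes were tested (minimum count 10 over the 9 libraries, 15555 of 58735 genes). TMM scaling and the robust quasi-likelihood test of edgeR 4.0.16 (R 4.3.3) were followed by Benjamini-Hochberg adjustment over all genes tested, with a threshold of 0.05, and the scripts were tested on simulated data. CPM values use TMM-scaled library sizes. P-values rest on 3 libraries a group. No 2 libraries of a group agreed within sampling noise. With 3 libraries against 3, an exact permutation test cannot give a p below 0.1, so none was used. Intervals and detection limits cover counting error or the spread of these libraries only.

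The members and the gene lists were chosen with earlier results of these data known. Every member is described by role, with values in each library for those called in any comparison and for regulators and transport genes, and up to 4 called genes per further list are named by their p between the siRNAs. ACAT2, HMGCS1, PAQR3 and OSBPL10 are given in more detail than this rule asks, a choice made once their values were known. Alternatives were RLE size factors, DESeq2 1.42.0, 1 edgeR fit of 9 libraries, no filter, at least 10 counts in every library, the replicate number as a block, an adjusted p of 0.01 and leaving out each library in turn. For the named genes of the further lists, except OSBPL10, the same settings were added after seeing the data. Promoter sequences are from RefSeq (GRCh38.p14) and were matched by symbol. Of the markers fixed for the check of the cell line, 1 is not reported here.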

Additional observations from a re-analysis of the deposited data

Results flagged for a closer look

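For 6 members, all 3 siCDO1A libraries lay on one side of the siCtrl mean and all 3 siCDO1C libraries on the other. The share of all genes tested that do so was not counted, so the 6 cannot be weighed against it. The direct comparison of siCDO1C with siCDO1A by edgeR tests that difference, on the same values by which these members were picked. ACAT2 differed by -0.37 (adjusted p = 0.0794), HMGCS1 by -0.33 (adjusted p = 0.110), HSD17B7 by -0.29 (adjusted p = 0.596), FDFT1 by -0.19 (adjusted p = 0.562) and SREBF2 by -0.16 (adjusted p = 0.651), each lower with siCDO1C. STARD4 differed by 0.40 (adjusted p = 0.206), higher with siCDO1C. None of the 6 differences passed an adjusted p of 0.05 in this test. Without siCDO1C replicate 2, ACAT2 and HMGCS1 passed and the other 4 did not. The same held in DESeq2, in 1 edgeR fit of 9 libraries, with no filter and with the replicate block.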

How the results depend on the processing

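RLE size factors and at least 10 counts in every library moved no member count by more than 1.5 times. The 10 members called with siCDO1A against siCtrl became 5 in 1 edgeR fit of 9 libraries and 6 at an adjusted p of 0.01, and ranged from 6 to 16 on leaving out 1 library. The median over the 28 members, 0.0964, ranged from 0.0324 (without siCDO1A replicate 2) to 0.133. The 3 called with siCDO1C became 5 with no filter and 0 at an adjusted p of 0.01, with a range of 0 to 11, and the median over the 28 members, -0.13, ranged from -0.14 to -0.0935. Between the siRNAs, 0 members became 2 (DESeq2, 9 libraries in 1 fit, no filter), with a range of 0 to 8 and a median over the 28 members, -0.16, of -0.20 to -0.15. The share of all genes called moved too. It went from 7.37% higher and 7.48% lower to 11.2% and 11% without siCDO1A replicate 3. Without siCDO1C replicate 2 it went from 2.27% and 2.5% to 6.78% and 6.52% against siCtrl. Between the siRNAs it then went from 0.244% and 0.199% to 1.59% and 1.29%. For the other settings these shares were not counted. The causes were not tested. With 2 libraries left in a group, the fit assumes a common spread.

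The replicate numbers equal the batch numbers of the labels. Deviations of same-numbered libraries from their group means correlated from -0.38 to 0.38 over 11337 genes, not above 0.1 for every number, so the numbers were not taken as pairs. With the replicate block, 5 members were called with siCDO1A and 2 between the siRNAs, and the count with siCDO1C stayed within 1.5 times.

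No called member changed sign. On leaving out 1 library, some uncalled changes crossed 0: with siCDO1A, MVD (-0.0159 to 0.17), CYP51A1 (-0.0818 to 0.0546), TM7SF2 (-0.0366 to 0.0993), SCAP (-0.0008 to 0.0732) and ABCA1 (-0.0723 to 0.22); with siCDO1C, IDI1 (-0.12 to 0.0827), FDPS (-0.0666 to 0.0589), NSDHL (-0.20 to 0.0007) and EBP (-0.0683 to 0.19); between the siRNAs, GGPS1 (-0.0463 to 0.12), MSMO1 (-0.16 to 0.0884), SC5D (-0.0162 to 0.0865) and NPC1 (-0.13 to 0.0693). ABCA1, at 4.84 to 11.6 CPM, has the least depth of the members.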
